A study of Mus musculus with 14 samples.

Results

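The comparison set embryonic liver Ter cells against marrow cells labelled as megakaryocyte-erythroid progenitors (MEP), over the 10751 genes, of 49583 in the deposited table, whose mean reached 1 FPKM (fragments counted per unit of transcript length and of library size) in either column. Liver Ter cells were sorted as Ter-119+ CD45- Lin- from embryonic liver at E14.5. The MEP-labelled cells came from bone marrow, with a gate given as c-Kit+, FcγR low, CD34+, Lin-, IL-7R- and Sca-1-. Both groups were wild type C57BL/6, had a stated purity above 98% and consisted of 2 samples each, which makes 4 of the 14 samples of the series. Marrow cells labelled as common myeloid progenitors (CMP, 2 samples, same strain, same gate except CD34-) were read beside them to check the label. The other groups were Ter cells and CD45+ cells of tumour-bearing spleen, stem cells and lymphoid progenitors. The age of the marrow donors was not stated.

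Ter-119 marks mouse red cell precursors from the proerythroblast stage on, and at E14.5 the liver is the main site of definitive red cell production. An MEP is the shared precursor of megakaryocytes and red cells. On the way from such a precursor to an erythroblast, GATA1, TAL1 and KLF1 switch on globin, heme and membrane genes, the erythropoietin receptor carries the survival signal, and in the last steps organelles are cleared and the nucleus is expelled. In textbook gates an MEP is CD34- and a CMP is CD34+, the opposite of the gates in these labels.

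The table holds 1 number per gene for each group, which is the authors' mean of 2 samples. The digits of each mean gave back the 2 libraries behind it, called A for the deeper one and B for the other, without their replicate numbers. Liver Ter libraries held 28537889 and 17537636 fragments, those labelled MEP 24621750.5 and 20079202, and those labelled CMP 14636912.5 and 13413530.5. These depths are the values the digits imply, of which 3 are not whole, and how the authors counted mapped fragments is not given in the sources used here. Across genes, which are not independent replicates, Pearson's r between a group's libraries was 0.993 for liver Ter, 0.987 for MEP and 0.983 for CMP. Values were recovered in all 6 libraries for 10529 of the 10751 genes. The other 222 include the most abundant transcripts, for which only the authors' mean is given. The labels do not say whether paired samples were taken from different animals, and a p-value then measures only the spread between samples, which may be technical.

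The MEP-labelled column went against its label. Its leading gene was S100a9, a calcium-binding alarmin of neutrophils, with a deposited mean of 137 FPKM in liver Ter, against 84794 in the MEP-labelled group and 1561 in the CMP-labelled group. It was followed by the secondary-granule gene Ngp with 34.8, 34069 and 400 FPKM, and the other alarmin chain S100a8 with 75.6, 32952 and 617 FPKM, in the same order of groups. The 13 late neutrophil genes made up 0.0851% of summed FPKM in liver Ter, against 48.1% in MEP and 1.21% in CMP. All 13 had deposited means at least 2-fold lower in liver Ter than in MEP. The erythroid markers of an MEP were low in the column of that name. Gata1 had 1.18 and 0.674 FPKM in the MEP-labelled libraries, against 7.71 and 4.34 in the CMP-labelled ones, and Klf1 had 1.57 and 0.944 against 5.76 and 2.68. Epor, the erythropoietin receptor, had 0.919 and 0.451 FPKM in MEP, against 2.58 and 1.61 in CMP. Cd34 had 0.111 and 0.0273 FPKM in the MEP-labelled libraries, whose stated gate is CD34+, and a deposited mean of 29.7 in the CMP-labelled group, whose stated gate is CD34-. Itgam, the CD11b chain that a lineage cocktail usually removes, had 73.2 and 69.1 FPKM in MEP and a mean of 3.68 in CMP, a log2 fold change of 4.03 ± 0.29 (SE, n = 2 libraries each, limma, adjusted p = 5.97e-05). In that fit 1045 of 10529 genes (9.92%) were called higher in MEP than in CMP and 2482 (23.6%) lower. Of the 5 tested MEP markers Gata1, Klf1, Epor, Itga2b and Gfi1b, 4 were called lower in MEP than in CMP, against 2 by median of ratios, 2 by quantiles and 1 with a pseudocount of 5. Epor was not called, at -0.87 ± 0.19 on the log2(FPKM + 1) scale. The megakaryocyte and platelet list went the other way, with 5 of 12 tested genes called higher in MEP than in CMP and 2 lower (median 0.42). Its 20 genes summed to 255 FPKM in MEP and 102 in CMP. The group is therefore called MEP-labelled throughout, and each difference below is a difference from these libraries.

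**Figure D1:**
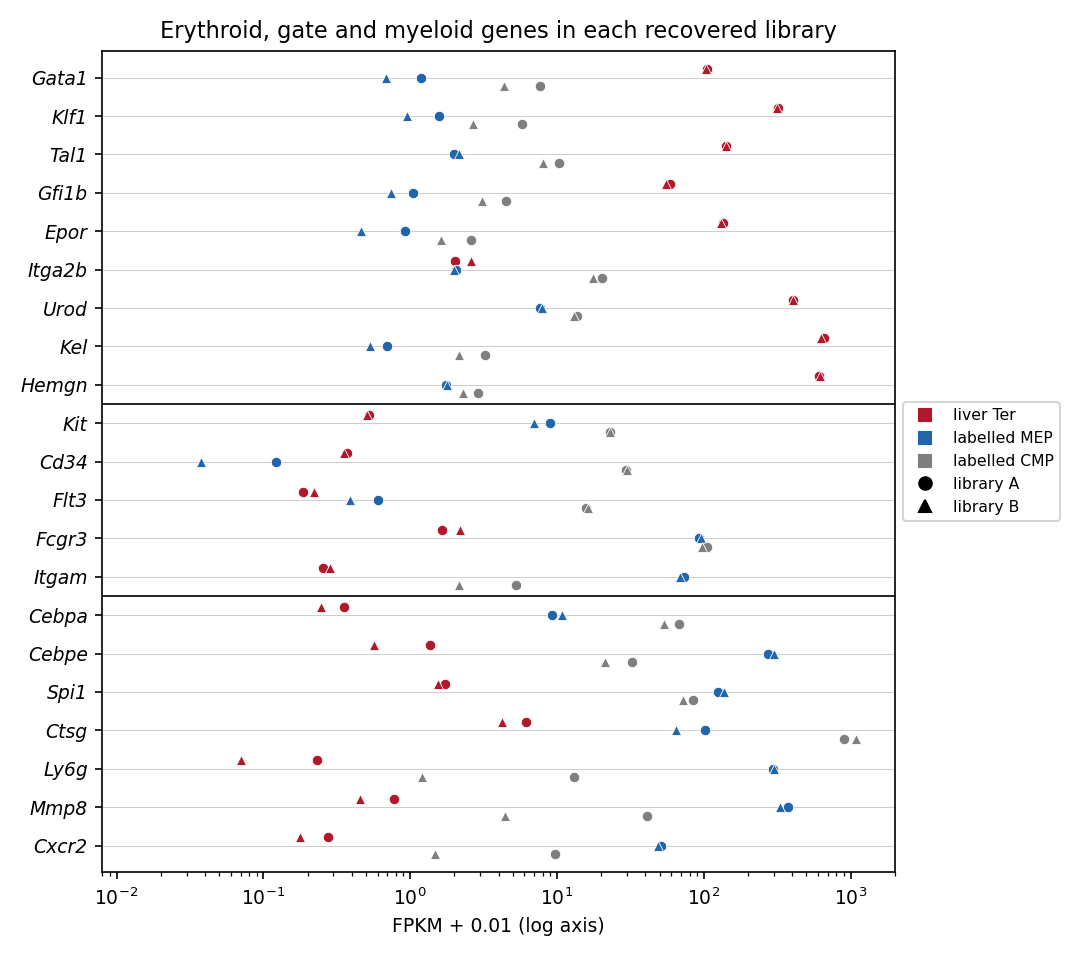
FPKM (plus 0.01, log axis) of erythroid genes (top block), genes of the sorting gates (middle) and myeloid genes (bottom) in each recovered library of liver Ter (red), MEP-labelled (blue) and CMP-labelled (grey) cells; circles are library A and triangles library B. The liver Ter libraries lie far to the right for Gata1, Klf1, Tal1, Gfi1b and Epor, and the MEP-labelled libraries for Itgam, Cebpe, Ly6g, Mmp8 and Cxcr2.

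The liver Ter column held the red cell transcripts that its gate calls for. The globin genes held 47.6% of summed FPKM in liver Ter, against 0.00227% in MEP and 0.00232% in CMP. The heme, membrane and red cell enzyme lists added 6.00%, against 0.261% in MEP and 0.507% in CMP. The most abundant genes that together reach 50% of FPKM numbered 5 in liver Ter and 9 in MEP, against 428 in CMP. FPKM are scaled to the library, so abundant transcripts lower the values of all others. Each count below is therefore also given with totals computed without globin genes where that moves it by over 1.5 times. That setting multiplied liver Ter values by 1.501 and MEP-labelled ones by 0.6801, because late neutrophil genes stayed in the totals. It therefore raised every liver Ter value relative to MEP. With late neutrophil genes also left out, a setting chosen after seeing the data, the factors were 1.202 and 1.048. In bulk samples, fewer cells of a type and less RNA per cell cannot be told apart.

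**Figure D2:**
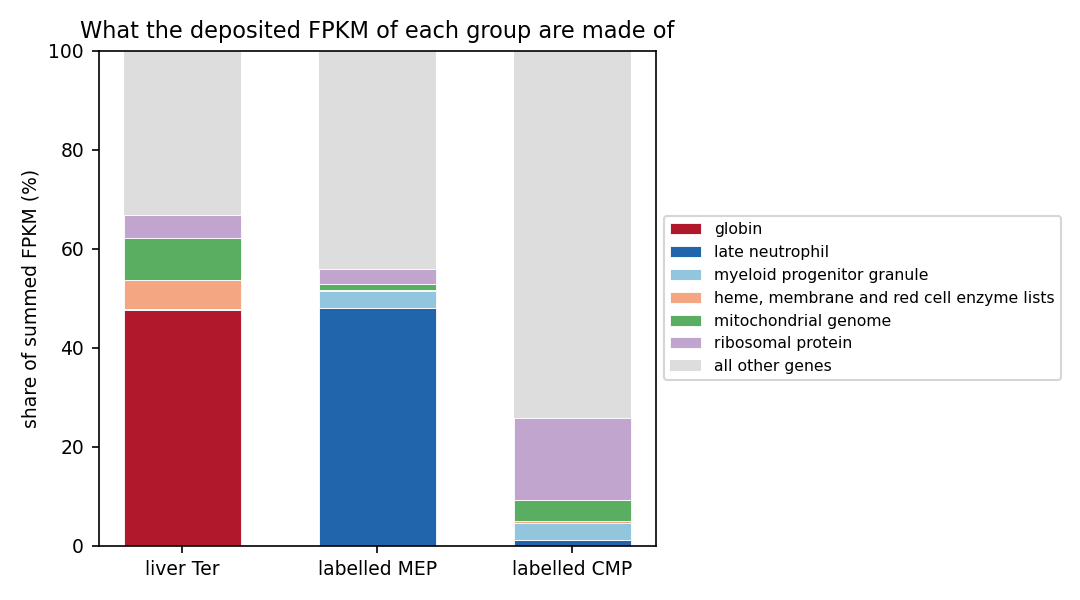
Share of summed deposited FPKM (%) held by 6 gene sets and by all other genes in liver Ter, MEP-labelled and CMP-labelled cells, from the authors' group means. Globins hold 47.6% of liver Ter and late neutrophil genes hold 48.1% of MEP-labelled cells.

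Of the 10529 tested genes, 1189 (11.3%) were higher and 4521 (42.9%) lower in liver Ter than in MEP-labelled cells (limma on log2(FPKM + 1); a call needs a Benjamini-Hochberg adjusted p under 0.05 and a 2-fold change), with a median over all tested genes of -0.80. With totals computed without globin genes, 2665 were higher and 2653 lower, and the median was 0.02. Without globin and late neutrophil genes in the totals, a setting chosen after seeing the data, 1389 were higher and 4278 lower (median -0.67). The share of calls that were higher was 20.8%, and 50.1% without globins in the totals. Each list count below stands beside 11.3% higher and 42.9% lower among all tested genes. In the deposited means, 1260 of 10751 genes were at least 2-fold higher and 4650 at least 2-fold lower. A mean of at least 1 FPKM in both columns was found for 6410 genes, in liver Ter alone for 830 and in MEP alone for 3511. At the entry threshold, Nars2 was just inside with 1.0006 FPKM in liver Ter and 0.2209 in MEP, and Icam1 just outside with 0.1216 and 0.9972. A list almost absent from 1 group enters through the other group, so the direction of its calls largely follows from this filter.

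**Figure D3:**
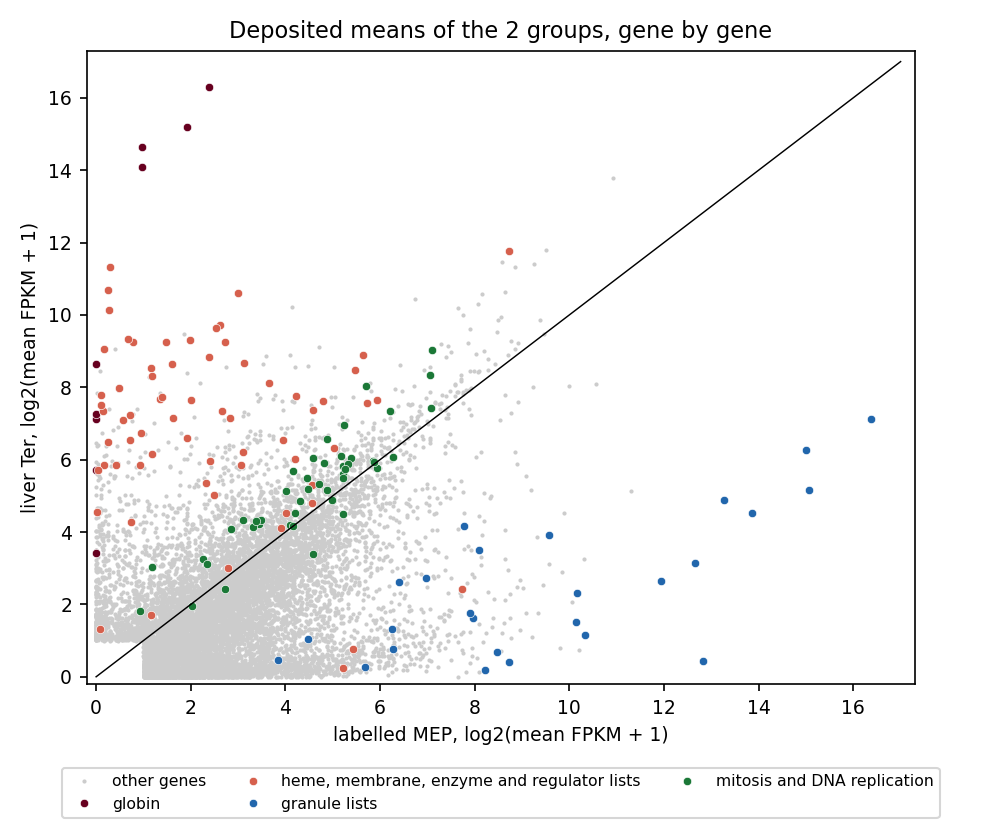
Deposited group means of the 10751 genes, with log2(mean FPKM + 1) of MEP-labelled cells on the x axis and of liver Ter cells on the y axis; the line marks equal values. Globins (dark red) and the heme, membrane, enzyme and regulator lists (orange) lie mostly above the line, the granule lists (blue) below it, and mitosis and replication genes (green) along it.

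The globin genes were the most abundant transcripts of liver Ter cells. Hbb-bs, an adult beta-globin gene (mm10 chromosome 7, 103826534 to 103828096), had a deposited mean of 79975 FPKM in liver Ter and 4.20 in MEP. Hba-a1, an adult alpha-globin gene (chromosome 11, 32283511 to 32284465), had 37139 and 2.77. Their near-identical partners Hbb-bt, with 25575 and 0.949 FPKM, and Hba-a2, with 17472 and 0.953, can share reads with them, so the split within each pair is uncertain. Embryonic globins were present at far lower levels. Hbb-bh1 had 130 and 148 FPKM in the liver Ter libraries, Hba-x, the zeta chain, had 50.4 and 53.0, and both had 0 in the MEP-labelled libraries. Hbb-y, the epsilon-type chain, had a mean of 400 FPKM in liver Ter and was listed at 0 in MEP. Embryonic chains made up 0.507% of beta-type and 0.0943% of alpha-type globin FPKM in liver Ter.

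Genes of heme synthesis were higher along nearly the whole pathway, with 10 of 12 tested genes higher and 1 lower (median log2 fold change 4.11). The erythroid first enzyme Alas2 (chromosome X, 150547375 to 150570638) had a deposited mean of 1636 FPKM in liver Ter and 0.192 in MEP. Its housekeeping counterpart Alas1 was the gene that fell, with 0.812 and 0.589 FPKM in liver Ter libraries, against 36.4 and 47.1 in MEP-labelled ones (-4.64 ± 0.17, SE, n = 2 each, limma adjusted p = 1.27e-06). Cpox, coproporphyrinogen oxidase, had 639 and 631 FPKM against 2.73 and 3.20. Urod, uroporphyrinogen decarboxylase, had 407 and 404 FPKM against 7.60 and 7.86. Fech, which inserts the iron, had a mean of 839 in liver Ter and 5.12 in MEP. The mitochondrial protease subunit Clpx was not called, with 6.75 and 7.39 FPKM against 6.07 and 5.80, though it was called higher with globin-free totals.

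Iron genes moved in both directions, with 5 of 12 tested higher and 2 lower (median -0.02), and with globin-free totals 6 higher and 1 lower (median 1.10). In the deposited means of all 15 members, 3 of them not recovered, 8 were at least 2-fold higher and 2 lower (median 1.64). Uptake genes were high in liver Ter. Tfrc, the transferrin receptor, had a mean of 466 FPKM in liver Ter and 11.1 in MEP, and Slc25a37, the mitochondrial iron importer mitoferrin, had 1191 and 16.7. Steap3, the endosomal ferrireductase, had 15.2 and 14.6 FPKM in liver Ter libraries, against 0.590 and 0.453 in MEP-labelled ones. Slc40a1, the iron exporter ferroportin, fell to 4.95 and 5.07 FPKM in liver Ter, against 17.7 and 16.9 in MEP. With globin-free totals its log2 fold change was -0.58 and the call was lost. Flvcr1, a heme exporter, also fell, with 0.433 and 0.419 against 4.82 and 4.03 FPKM. The ferritin light chain Ftl1 was not called, with 265 and 275 against 232 and 147 FPKM, though it was with globin-free totals.

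All 16 tested red cell membrane genes rose (median 5.68), and 22 of 22 members with at least 1 FPKM were at least 2-fold higher in the deposited means. Slc4a1, the anion exchanger band 3, had a mean of 2558 FPKM in liver Ter and 0.216 in MEP. Among blood group genes, Kel had 660 and 633 FPKM in liver Ter libraries, against 0.688 and 0.521 in MEP-labelled ones (8.66 ± 0.15, SE, n = 2 each, limma adjusted p = 1.34e-07), and Rhd had 608 and 610 against 0.815 and 0.625. Epb42, the band 3 linker protein 4.2, had 218 and 218 FPKM against 0.0900 and 0.0552. Slc2a1, the glucose transporter, had 461 and 447 against 5.62 and 2.80. The smallest rise was that of the adducin chain Add1, with 82.1 and 75.1 against 31.5 and 31.7 FPKM.

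Red cell enzymes rose in 7 of 10 tested genes and fell in 1. Prdx2, the abundant red cell peroxiredoxin, had 785 and 792 FPKM in liver Ter libraries, against 5.29 and 4.28 in MEP-labelled ones. Bpgm, which makes 2,3-bisphosphoglycerate, had 204 and 206 against 1.81 and 1.28. Ada, adenosine deaminase, fell to 0.263 and 0.0854 FPKM in liver Ter, against 33.3 and 38.9 in MEP (-4.98 ± 0.12, SE, n = 2 each, limma adjusted p = 2.72e-07). The glycolytic enzyme Gpi1, whose libraries were not recovered in MEP, had 4.35 and 4.42 FPKM in liver Ter and a deposited mean of 210 in MEP. Hk1, a hexokinase, was not called, with 30.0 and 23.7 against 23.5 and 21.8 FPKM, but was with globin-free totals.

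Erythroid regulators rose in 15 of 18 tested genes and none fell (median 3.68). Gata1 (chromosome X, 7959260 to 7978071) had 106 and 104 FPKM in liver Ter libraries, against 1.18 and 0.674 in MEP-labelled ones (5.79 ± 0.24, SE, n = 2 each, limma adjusted p = 2.15e-06). Klf1 (chromosome 8, 84901928 to 84905291) had 319 and 315 FPKM against 1.57 and 0.944 (7.15 ± 0.29, SE, n = 2 each, limma adjusted p = 1.79e-06). The largest change in the list was that of Trim10, a tripartite motif protein, with 542 and 532 FPKM against 0.0543 and 0.177. Sox6, a repressor of embryonic globin in the mouse, had 22.5 and 22.2 FPKM against 0.00274 and 0.0134. Nfe2, which neutrophil precursors also express, changed less, with 200 and 197 against 60.4 and 59.4 FPKM. The LIM-domain binding cofactor Ldb1, Bcl11a, a repressor of fetal-stage globin genes in humans, and Mxi1, a MYC antagonist, were not called, although all of them were called higher with globin-free totals. Without globin and late neutrophil genes in the totals, 15 regulators rose, as in the main fit. The counts of higher genes were then also unchanged in heme synthesis (10), iron handling (5), red cell enzymes (7) and the erythropoietin receptor pathway (5).

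Promoter sequences of 5 genes, picked after their values were seen to stand for the erythroid and the granule lists, are shown for comparison, from 250 bases before to 50 after the annotated start (RefSeq, GRCm38.p6, read on the gene's strand). In the first 3, chosen for the master regulator, the first heme enzyme and a membrane protein, capitals mark the GATA motif (AGATAA or TGATAA on either strand) and the CACC box bound by KLF1 (CCNCNCCC on either strand, overlaps counted). In the other two, of the alarmin S100a9 and the granule protein lactoferrin (Ltf), capitals mark the C/EBP motif (TTGCNNAA) and the PU.1 motif (GAGGAA), on either strand.
Klf1, chr8:84901732-84902031, plus strand: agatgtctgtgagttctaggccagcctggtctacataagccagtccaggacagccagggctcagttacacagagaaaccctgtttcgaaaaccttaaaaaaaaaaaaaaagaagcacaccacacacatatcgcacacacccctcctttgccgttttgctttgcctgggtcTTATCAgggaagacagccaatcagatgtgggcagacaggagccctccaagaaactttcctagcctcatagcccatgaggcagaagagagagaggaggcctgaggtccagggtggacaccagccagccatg
Alas2, chrX:150547167-150547466, plus strand: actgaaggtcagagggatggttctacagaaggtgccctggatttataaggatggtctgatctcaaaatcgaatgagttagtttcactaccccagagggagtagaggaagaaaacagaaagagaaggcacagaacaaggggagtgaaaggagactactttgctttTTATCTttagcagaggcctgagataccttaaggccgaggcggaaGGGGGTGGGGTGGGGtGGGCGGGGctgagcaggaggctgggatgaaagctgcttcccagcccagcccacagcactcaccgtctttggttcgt
Epb42, chr2:121036828-121037127, minus strand: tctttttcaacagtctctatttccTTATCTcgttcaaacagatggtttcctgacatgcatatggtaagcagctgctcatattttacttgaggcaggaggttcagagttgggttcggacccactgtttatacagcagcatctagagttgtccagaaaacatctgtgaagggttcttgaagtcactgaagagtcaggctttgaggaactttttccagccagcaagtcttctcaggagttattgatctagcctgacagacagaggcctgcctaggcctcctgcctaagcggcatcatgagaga
S100a9, chr3:90695672-90695971, minus strand: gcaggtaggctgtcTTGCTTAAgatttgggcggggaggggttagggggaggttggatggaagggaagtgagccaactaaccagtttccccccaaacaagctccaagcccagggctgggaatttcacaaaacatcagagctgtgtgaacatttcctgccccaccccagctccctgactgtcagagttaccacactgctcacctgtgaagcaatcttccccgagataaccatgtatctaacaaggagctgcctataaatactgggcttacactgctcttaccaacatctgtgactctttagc
Ltf, chr9:111019042-111019341, plus strand: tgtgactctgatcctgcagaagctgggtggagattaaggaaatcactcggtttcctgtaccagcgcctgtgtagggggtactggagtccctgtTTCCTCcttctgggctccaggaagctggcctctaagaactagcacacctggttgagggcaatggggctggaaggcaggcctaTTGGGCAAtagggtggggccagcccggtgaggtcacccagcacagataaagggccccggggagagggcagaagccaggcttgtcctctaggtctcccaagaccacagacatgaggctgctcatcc
The Klf1 window holds 1 GATA motif and no CACC box, that of Alas2 1 and 4, and that of Epb42 1 and none. The S100a9 window holds 1 C/EBP motif and no PU.1 motif, and that of Ltf 1 of each. Each group's windows also hold motifs of the other kind, which are not capitalised: the S100a9 window has 1 GATA motif and 4 CACC boxes, that of Ltf 1 and 2, and those of Alas2 and Epb42 have 1 PU.1 motif each. The 5 windows therefore do not differ in whether a GATA motif is present. Of the 48 genes of the erythroid lists called higher, 40 were matched to 50 promoters. The GATA motif was in 32.0% of them and in 18.6% of all 32851 promoters of the same length, the CACC box in 66.0% and 49.5%, the C/EBP motif in 5 of the 50 and in 10.8% of all, and the PU.1 motif in 26.0%. Of the 26 granule genes, 22 were matched to 24 promoters. The C/EBP motif was in 45.8% of these, the PU.1 motif in 66.7% against 28.3% of all promoters, the GATA motif in 12.5% and the CACC box in 12 of the 24. A match is a stretch of letters, and binding was not measured.

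In the erythropoietin receptor pathway, 5 of 14 tested members rose, the receptor among them, and 7 fell (median -1.39), beside 11.3% higher and 42.9% lower among all tested genes. Without MEP library B, 3 rose. Epor had 135 and 131 FPKM in liver Ter libraries, against 0.919 and 0.451 in MEP-labelled ones (6.33 ± 0.19, SE, n = 2 each, limma adjusted p = 5.82e-07). The survival gene Bcl2l1, which encodes BCL-XL, had 137 and 132 FPKM against 4.82 and 6.22, and the kinase gene Pim1 had 180 and 180 against 23.0 and 21.4. Jak2, the kinase on the receptor, was not called, with 27.6 and 29.8 against 17.4 and 17.7 FPKM, but was called higher with globin-free totals. Stat5b, the transcription factor it activates, fell to 2.92 and 3.09 FPKM in liver Ter, against 21.4 and 20.7 in MEP, and Stat5a to 0.280 and 0.280 against 3.71 and 3.23. Lyn, a kinase that myeloid cells also use, had 0.697 and 0.560 against 35.6 and 43.5 FPKM. The feedback inhibitors went apart, with Cish at 1.65 and 1.77 FPKM against 0.405 and 0.295 (called higher, at 1.01, but not without liver Ter library B, at 0.97, or without MEP library B, at 0.95), and Socs1 at 0.0574 and 0.0935 against 4.23 and 3.18 (called lower).

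Genes of organelle clearance and enucleation rose in 9 of 14 tested members and fell in 3. Ube2o, the ubiquitin-conjugating enzyme that clears ribosomes in reticulocytes, had 113 and 93.6 FPKM in liver Ter libraries, against 0.975 and 1.12 in MEP-labelled ones. Trim58, which acts in enucleation, had 32.0 and 27.8 against 0.0926 and 0.0682. Bnip3l, the mitophagy receptor NIX, had 130 and 143 against 37.2 and 39.8. Atg7, the autophagy conjugation enzyme, fell to 1.18 and 1.27 FPKM in liver Ter, against 11.2 and 12.2 in MEP. The falls of Alox15 and Fundc1 were not called with globin-free totals, where 11 genes were higher and 1 lower.

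Replication and mitosis genes differed less, and their calls turned on the scaling. In DNA replication 4 of 24 tested genes rose and 1 fell (median 0.62), while with globin-free totals 19 rose and none fell (median 1.70). Without globin and late neutrophil genes in the totals, 7 rose and none fell (median 0.82). The replicative helicase subunit Mcm5 had 53.7 and 52.8 FPKM in liver Ter libraries, against 57.3 and 62.8 in MEP-labelled ones, and Pcna, the sliding clamp, had 170 and 171 against 133 and 133; neither was called, though Pcna was with globin-free totals. Rrm2, the ribonucleotide reductase subunit, rose, with 319 and 327 against 123 and 141 FPKM. In mitosis 9 of 21 tested genes rose and none fell (median 0.93), and 20 rose with globin-free totals. Without globin and late neutrophil genes in the totals, 12 rose. Ube2c, the ubiquitin-conjugating enzyme of the anaphase-promoting complex, had 260 and 262 FPKM in liver Ter libraries, against 49.2 and 53.3 in MEP-labelled ones (2.33 ± 0.15, SE, n = 2 each, limma adjusted p = 1.51e-05). Top2a, the topoisomerase that untangles chromosomes, was not called, with 65.4 and 68.3 against 66.2 and 87.5 FPKM.

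Among cell cycle control genes 1 of 15 rose and 3 fell, against 7 and 2 with globin-free totals, and 2 rose without liver Ter library A or without MEP library B. In the main fit neither share was above the 11.3% higher and 42.9% lower among all tested genes. Ccne1, cyclin E1, was the one that rose, with 29.4 and 29.6 FPKM in liver Ter libraries, against 7.58 and 8.42 in MEP-labelled ones. Cdk6 fell to 0.263 and 0.326 FPKM, against 5.05 and 4.98, and the inhibitor Cdkn1a to 1.09 and 1.54, against 9.19 and 7.62. For Ccnd3, the cyclin D used by erythroblasts, the values were 44.7 and 43.7 FPKM in liver Ter and 47.6 and 59.2 in MEP, with no call.

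Ribosomal protein genes were mostly not called, with 6 of 64 tested higher, none lower and a median of 0.31. With globin-free totals 53 were higher (median 1.44), but under quantile normalization only 9 were (median 0.44). All 64 were lower in MEP than in CMP, with a median of -1.92. In ribosome biogenesis none of 16 tested genes rose and 3 fell (median -0.23, and 0.75 with globin-free totals, where 5 rose and none fell). Without liver Ter library A or without MEP library A, 1 rose. The nucleolar protein gene Npm1 had 36.3 and 40.4 FPKM in liver Ter libraries, 53.4 and 41.6 in MEP-labelled ones and a mean of 412 in CMP. In chromatin enzymes none of 13 rose and 4 fell (median -0.25), against 5 and 1 with globin-free totals (median 0.85). Without globin and late neutrophil genes in the totals, the medians of ribosome biogenesis and chromatin enzymes were -0.06 and -0.06. In neither list was the share that fell above the 42.9% of all tested genes called lower. Tet2, a methylcytosine oxidase, fell to 0.141 and 0.0913 FPKM, against 4.08 and 4.12. Mitochondrial genome transcripts held 8.39% of summed FPKM in liver Ter, against 1.22% in MEP and 4.24% in CMP.

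**Figure D4:**
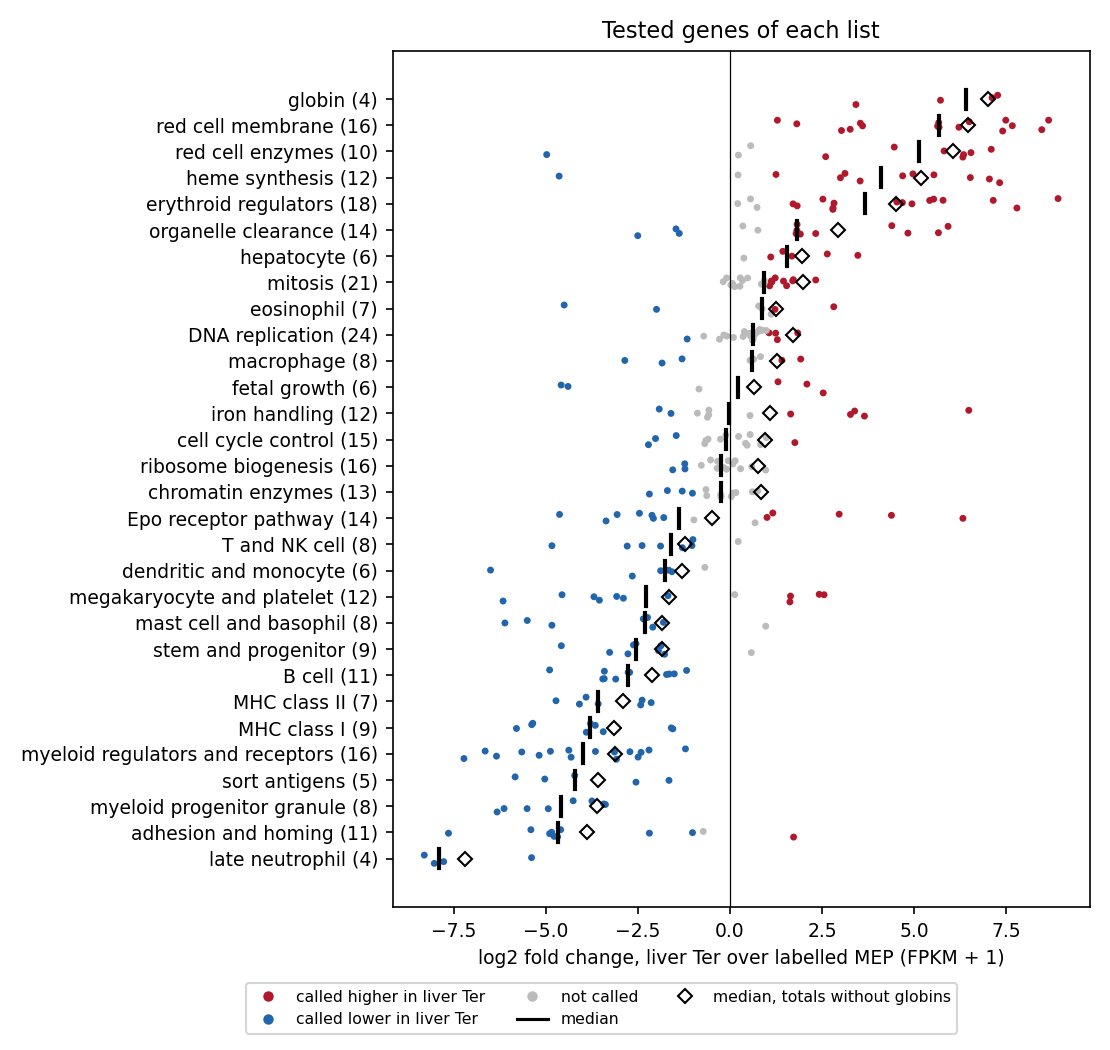
Log2 fold change of each tested gene (liver Ter over MEP-labelled, on log2(FPKM + 1)) by list, with the number of tested genes in brackets; red points were called higher, blue lower, grey not called, bars are medians and diamonds medians with globin-free totals. For globin and hepatocyte genes at 0 in MEP-labelled libraries the position depends on the added 1 FPKM. Red cell membrane genes lie to the right throughout and late neutrophil genes to the left. The medians of cell cycle control, ribosome biogenesis and chromatin enzymes change side of 0 with globin-free totals. Without globin and late neutrophil genes in the totals (not drawn) they were 0.07, -0.06 and -0.06.

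Stem and progenitor genes were low in liver Ter cells, with 8 of 9 tested lower and none higher (median -2.56). Kit, the stem cell factor receptor, had 0.511 and 0.499 FPKM in liver Ter libraries, against 8.88 and 6.93 in MEP-labelled ones and a mean of 22.9 in CMP. Myb, a regulator of progenitors, had 0.557 and 0.709 against 10.4 and 9.87 FPKM, and Gata2, which GATA1 replaces as erythroid cells mature, 0.247 and 0.201 against 3.64 and 3.78. Erg, an ETS factor, had 0.152 and 0.263 against 30.5 and 25.6 FPKM. Lyl1, a relative of Tal1, was the member not called, with 96.4 and 96.3 against 63.0 and 65.3 FPKM, and was called higher with globin-free totals. It held most of the 101 FPKM to which the 20 genes of the list summed in liver Ter. Of the 20, 11 were under 1 FPKM in both columns. The genes called lower therefore passed the filter mostly through MEP, and their direction largely follows from it.

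Myeloid genes were low in liver Ter cells. All 16 myeloid regulators and receptors fell (median -3.99, and 15 fell with globin-free totals). These 16 genes summed to 13.5 FPKM in liver Ter and 1085 in MEP. They therefore passed the filter mostly through MEP, and their direction largely follows from it. Cebpe, the C/EBP factor of secondary granules, had 1.36 and 0.553 FPKM in liver Ter libraries, against 275 and 299 in MEP-labelled ones (-7.23 ± 0.25, SE, n = 2 each, limma adjusted p = 1.05e-06). Spi1, which encodes PU.1, had 1.70 and 1.54 against 126 and 138 FPKM. Csf3r, the receptor for granulocyte colony-stimulating factor, had 0.932 and 0.869 against 148 and 159. All 8 tested granule genes of myeloid progenitors and all 4 tested late neutrophil genes fell; 9 late neutrophil genes were not recovered and are known by their means alone. Mmp9, gelatinase B, had 0.426 and 0.242 FPKM against 440 and 403, and Ly6g, the neutrophil surface antigen, 0.223 and 0.0605 against 297 and 301. Of the 8 tested granule genes of myeloid progenitors, 2 were called higher and 4 lower in MEP than in CMP. Elane, neutrophil elastase, had deposited means of 14.1 FPKM in liver Ter, against 762 in MEP and 2673 in CMP.

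Antigen presentation and adhesion genes were also low in liver Ter cells. All 9 class I genes fell (median -3.79; 8 with globin-free totals), among them B2m, the shared light chain, with 22.5 and 21.5 FPKM in liver Ter libraries, against 892 and 1001 in MEP-labelled ones. All 7 tested class II genes fell (median -3.58), though 3 were called lower with the spleen Ter libraries added to the fit and 4 with a pseudocount of 5. The 8 genes of that list summed to 1.93 FPKM in liver Ter. The tested ones therefore passed the filter almost only through MEP, and their direction largely follows from it. Of 11 tested adhesion and homing genes 9 fell and 1 rose. Itgb2, the leukocyte integrin beta chain, had 1.60 and 1.33 FPKM against 489 and 498, and Cxcr4, the receptor for the marrow chemokine CXCL12, 0.988 and 1.32 against 81.9 and 100. Itga4, the alpha chain by which erythroblasts bind macrophages, rose, with 27.2 and 25.4 against 7.22 and 7.24 FPKM. The fall of Itgb1 (-1.02) turned to 0.047 with globin-free totals, and its call was lost without liver Ter library A (-0.95) or MEP library B (-0.92).

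Genes of other cell types were read as a check on both sorts. In liver Ter, the 15 hepatocyte genes summed to 21.9 and 28.2 FPKM in the libraries, against 1.31 and 1.40 in MEP. Of these, 9 were under 1 FPKM in both columns. With so little in MEP, the 6 tested genes passed the filter almost only through liver Ter. That 5 of them were called higher therefore follows largely from the filter. Alb, albumin, had 9.10 and 11.2 FPKM in liver Ter and 0 in both MEP-labelled libraries; Hnf4a, the hepatocyte factor, had 0.0435 and 0.0827 FPKM in liver Ter. The 15 macrophage genes summed to 16.3 and 12.4 FPKM against 16.9 and 19.5. Of 8 tested, 2 were higher and 3 lower, beside 11.3% and 42.9% among all tested genes. With globin-free totals, and also under quantile normalization, 5 were higher and 2 lower. Without globin and late neutrophil genes in the totals, 2 were higher and 3 lower, as in the main fit. Cd5l, a product of tissue macrophages, had 3.94 and 3.28 FPKM against 0.140 and 0.294. The 20 megakaryocyte and platelet genes summed to 28.7 and 43.6 FPKM against 288 and 222. Of 12 tested, 4 rose and 7 fell, and the platelet chemokine Pf4 had 3.16 and 8.07 FPKM in liver Ter libraries, against 0.225 and 0.0691. Eosinophil genes had 2 higher and 2 lower of 7 tested, against 5 and 2 with globin-free totals, and 1 higher without liver Ter library B.

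Lymphoid and basophil genes were present in the MEP-labelled libraries as well, and also in CMP. By the deposited means, B cell genes summed to 168 FPKM in MEP and 166 in CMP, and T and NK cell genes to 77.3 and 163. Mast cell and basophil genes summed to 202 and 1486, and dendritic and monocyte genes to 239 and 837. Of the tested genes, 9 of 11 B cell genes were called higher in MEP than in CMP, and 7 of 8 mast cell and basophil genes lower. The 13 B cell genes summed to 4.61 and 4.49 FPKM in liver Ter libraries, against 157 and 179 in MEP-labelled ones, and all 11 tested fell (median -2.77). Cd79a, the B cell receptor signalling chain, had 0.601 and 0.587 FPKM against 15.9 and 17.2. Of 8 tested T and NK cell genes 7 fell and none rose (4 and 1 with globin-free totals), of 8 mast cell and basophil genes 7 fell and none rose (1 rose with globin-free totals, without liver Ter library A or without MEP library B), and of 6 dendritic and monocyte genes 5 fell. The basophil protease Mcpt8 had 0.451 and 0.734 FPKM in liver Ter libraries, against 47.8 and 41.3 in MEP-labelled ones. By the deposited means, the 13 B cell genes summed to 4.55 FPKM in liver Ter and the 14 T and NK cell genes to 4.03. The 10 mast cell and basophil genes summed to 3.65 and the 12 dendritic and monocyte genes to 6.96. The filter therefore favoured genes high in MEP-labelled cells, and the direction of these counts largely follows from it. The part of these cell types in the results was not tested.

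The fetal growth list held few transcripts above the threshold, with 3 of 6 tested higher and 2 lower. Lin28b, the RNA-binding protein of the fetal blood program in the mouse, had 1.43 and 1.51 FPKM in liver Ter and 0 in both MEP-labelled libraries. Its paralog Lin28a had 0.140 and 0.0428 FPKM in liver Ter libraries, against 20.4 and 23.8 in MEP-labelled ones and a mean of 1.26 in CMP. The imprinted RNA gene H19 had 4.33 and 5.77 FPKM against 0.0342 and 0.0420. Lin28b and H19 passed the filter only through liver Ter and Lin28a only through MEP, so the direction of each largely follows from it. No gene of the artemin axis reached 1 FPKM in either column.

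Outside the lists, the 12 genes with the largest rise among those of at least 5 FPKM in each liver Ter library included Ypel4, Cldn13, Mgst3, Rab3il1, Nxpe2, Fam210b, Mir144, Slfn14, Samd11 and Art4. Cldn13, a claudin, had 247 and 236 FPKM in liver Ter libraries, against 0.343 and 0.420 in MEP-labelled ones. Slfn14, a ribosome-associated endoribonuclease, had 85.8 and 79.0 against 0 and 0.0134. Art4, the Dombrock blood group gene, had 82.5 and 83.2 against 0.161 and 0.158.

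Mir144 (chromosome 11, 78073005 to 78073070), the erythroid microRNA locus, had 80.2 and 92.4 FPKM in liver Ter libraries and 0 in both MEP-labelled libraries. These libraries measured RNA over the hairpin locus, not the mature arms, whose sequences are given from RefSeq (GRCm38.p6, plus strand) with the seed, bases 2 to 8, in capitals.
mmu-miR-144-5p: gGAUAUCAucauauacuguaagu
mmu-miR-144-3p: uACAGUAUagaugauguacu

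The 12 genes with the largest fall by the same rule were Lrg1, Itgb2l, Orm1, Plbd1, Klf2, Chil1, Ncf1, Pglyrp1, Mcemp1, Serpinb1a, Ifitm3 and Ckap4. Ncf1, a cytosolic subunit of the phagocyte NADPH oxidase, had 1.33 and 1.34 FPKM in liver Ter libraries, against 365 and 394 in MEP-labelled ones (-7.35 ± 0.08, SE, n = 2 each, limma adjusted p = 8.83e-08). Pglyrp1, a bactericidal granule protein, had 2.65 and 2.17 against 502 and 580 FPKM. Serpinb1a, an inhibitor of neutrophil elastase, had 2.16 and 1.41 against 387 and 392, and Orm1, an acute-phase glycoprotein, had 0 in both liver Ter libraries against 186 and 214. Klf2, a zinc finger factor, had 0.304 and 0.309 FPKM in liver Ter, against 210 and 264 in MEP and a mean of 133 in CMP. For none of the genes named by this rule did the libraries of the groups overlap, which the rule required.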

How the data were processed

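RNA was sequenced from total RNA of sorted cells (TruSeq kit, per the labels' protocols). The authors deposited 1 table with FPKM, fragments scaled to transcript length and library size, as 1 mean column per group. The build was mm10, per the submitters' processing notes. Not given in the sources used here are the aligner, the counter and the annotation. The unit was read from the values.

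Of 49588 lines, 2 without a name and 3 repeats were dropped, leaving 49583 genes, of which 49324 were matched to GENCODE M21 (GRCm38). The liver Ter, MEP, CMP and spleen Ter columns gave whole fragments per library, and 3 value columns were not used. For each gene the pair of whole fragment counts that gives the deposited mean was searched from the depths and the gene's exon length (annotated for 25752 genes, searched for 2672, none for 1522). This recovered 97.9% of the 10751 members in all 6 libraries, with means equal within 4.96e-10 of their size, which the method requires and which is no separate check. In the groups compared, 38.0% to 73.5% of a library's fragments lie in recovered genes. Tested on simulated data that follow the same model, it recovered 99.89% of genes of known length and 96.67% of those whose annotated length was wrong, with no wrong value.

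The test of differences was that of limma 3.58.1 (R 4.3.3), whose eBayes step used a mean-variance trend, on the 6 libraries as log2(FPKM + 1), with 3 residual and 3.06 prior degrees of freedom. Fold changes on this scale understate those of low genes. Simulated libraries held 10529 genes (dispersion 0.02), with 50 changed at each fold and all groups otherwise drawn from the MEP-labelled means. In them the test called 14% of 2-fold changes, 96% of 4-fold, 96% of 8-fold and 100% of 16-fold ones, and no unchanged gene. Scaling between groups of unlike composition was not simulated. Totals without globin genes divide each group's FPKM by its sum over the remaining genes. Depths cover counting error only. The 31 lists (454 genes, 447 with a value) and the comparison were chosen with earlier results of these data known. Genes were named from the lists and, outside them, as the 12 with the largest absolute fold change per direction among called genes that did not overlap and had 5 FPKM or more in both libraries of the higher group, passing over unnamed models and antigen receptor segments. A few genes that these rules name are not reported here. Python 3.11.15 was used for the rest.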

Additional observations from a re-analysis of the deposited data

How the results depend on the processing

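The count of genes higher in liver Ter than in MEP-labelled cells, 1189, was 2665 with globin-free totals, 1836 under median-of-ratios scaling, 2325 under quantile normalization and 682 with a pseudocount of 5. The count of lower genes, 4521, was 2653 with globin-free totals, 2826 under quantile normalization, 2083 with a pseudocount of 5 and 2823 with a filter at 5 FPKM. In the deposited means, 1260 genes at least 2-fold higher became 2783 with globin-free totals, 1921 by median of ratios, 2423 by quantiles and 732 with a pseudocount of 5. The 4650 lower ones became 2750 with globin-free totals, 2931 by quantiles, 2175 with a pseudocount of 5 and 2917 with a filter at 5 FPKM. Of the MEP markers, 4 were lower in MEP than in CMP, against 2 by median of ratios, 2 by quantiles and 1 with a pseudocount of 5. The first 3 of these settings rescale the groups, a pseudocount of 5 shrinks fold changes of low genes and the filter tests fewer genes, by construction. Leaving out 1 liver Ter or MEP-labelled library gave 1180 to 1204 higher and 4435 to 4530 lower genes. Totals without globin and late neutrophil genes, a setting chosen after seeing the data, gave 1389 and 4278. By list, with a pseudocount of 5 the higher genes numbered 0 in fetal growth (3 as reported) and 2 among hepatocyte genes (5). The lower ones numbered 5 in stem and progenitor (8), 7 in B cell (11), 3 in mast cell and basophil (7), 2 in T and NK cell (7) and 0 in chromatin enzymes (4). With the spleen Ter libraries added, 5 mitosis genes were higher (9).

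Among the 104 tested genes named, sign changed for 1 called gene, Itgb1, which was 0.047 with globin-free totals, and for uncalled genes near 0. These were Ccnd3 (0.86 with globin-free totals, 0.29 by median of ratios, 0.069 by quantiles), Npm1 (0.82, 0.26 and 0.086 in that order), Mcm5 (0.95, 0.38 and 0.10, and 0.026 without globin and late neutrophil genes) and Top2a (0.94, 0.37 and 0.041, and 0.011 without both lists). Without 1 library, Top2a ranged from -0.38 to 0.015 and Itga2b from -0.0017 to 0.26. A call was lost in 32 and gained in 17 of the other gene settings, and 1481 stayed. No paired analysis was possible because the recovered libraries carry no replicate number. Genes not recovered have no error, and with 2 samples a group no sample could be tested as standing apart.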
